A study of Mus musculus with 6 samples.

Results

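Neuropeptides are made in neurons as larger precursor proteins, cut to short active peptides in dense core vesicles and released beside a fast transmitter such as GABA or glutamate. In the amygdala, the brain region that links sensory cues to threat, several of them mark classes of GABA interneuron (somatostatin, neuropeptide Y, cholecystokinin, vasoactive intestinal peptide), while others are carried by neurons of the central amygdala and its inputs (the opioid peptides, corticotropin-releasing hormone, substance P, PACAP). Most act on receptors coupled to G proteins, and several of their genes are known to respond to cyclic AMP and neuronal activity. The 10 precursor genes Sst, Cort, Npy, Cck, Vip, Crh, Penk, Pdyn, Tac1 and Adcyap1 were taken by gene symbol from tables of 50383 gene IDs. Each symbol matched 1 gene in all 6 libraries.

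The tables hold RNA sequencing of the lateral amygdala from 129xC57BL/6 hybrid males 2 to 3 months old, in 3 groups of 2 libraries named Baf53b siRNA, scrambled siRNA and control. Baf53b, gene symbol Actl6b, is a neuron-specific subunit of a nucleosome remodelling complex; the study's design text places the injection of its siRNA 1 day after training, and the study's title concerns remote fear memory. What was given to the control mice is not in the labels, nor is when the tissue was taken or whether the 4 mice named in the dissection protocol stand behind each library or behind all. The p-values below therefore measure only the spread between these libraries, which may be technical, and the 3 comparisons share libraries.

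The sequence in front of the gene is shown here for 5 precursors with letters of a cyclic AMP response element, the site bound by CREB. RefSeq promoter windows (GRCm38.p6, the assembly of the mm10 build used for the files) were in the table used here for 8 of the 10 genes. Crh and Penk had no entry. The 250 bases before each annotated start were searched on both strands for the palindromic element TGACGTCA, for its shorter form TGACG, which the longer one contains, and for the AP-1 site TGANTCA. Somatostatin is the textbook gene for this element, and its promoter was the only 1 of the 8 to hold the full palindrome, 48 bases before the start, on the minus strand at chr16:23890859-23890918. Capitals mark the match, which reads CGTCA where the shorter form lies on the other strand, and each line runs 5′ to 3′ on the strand of the gene.
Sst: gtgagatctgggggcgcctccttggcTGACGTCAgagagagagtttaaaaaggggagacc
Vip: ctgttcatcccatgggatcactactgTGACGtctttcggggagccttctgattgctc
Adcyap1: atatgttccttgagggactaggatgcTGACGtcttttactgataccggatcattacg
Cck: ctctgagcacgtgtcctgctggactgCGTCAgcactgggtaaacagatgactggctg
Cort: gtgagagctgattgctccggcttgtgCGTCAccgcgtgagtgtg

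The Vip stretch is chr10:5639113-5639169 on the plus strand, with its match 79 bases before the start. The Adcyap1 stretch is chr17:93198900-93198956 on the plus strand, 91 bases before the upstream of its annotated starts. The Cck stretch is chr9:121495711-121495767 on the minus strand, at 47 bases. The Cort stretch is chr4:149126764-149126807 on the minus strand, at 18 bases, and ends at the start itself. Tac1 also held the shorter form, at 197 and 43 bases before its RefSeq start (not printed here). The stretch around the latter, chr6:7554992-7555048 on the plus strand, lies inside the gene span given below, which begins at 7554879. The Adcyap1 span given below begins at 93199422, so its RefSeq starts differ from it too. Thus 6 of the 8 genes had the shorter form, against 17.8% of 32851 mouse promoter windows of the same length. The full palindrome stood in 1.55% of those windows. The 8 genes had 10 windows between them, so a count of genes stands beside a share of windows. No window of these genes had the AP-1 letters, which 6.75% of all windows had, and the Npy and Pdyn windows had none of the motifs. These are letter matches in a fixed window and say nothing of binding in the tissue.

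The gene targeted by the siRNA was nearly level. Actl6b (chr5:137553517-137569582, plus strand) reached 42.8 and 39.6 FPKM under the label Baf53b siRNA, 43.8 and 43.9 in scrambled siRNA, and 42.9 and 44.1 in control. FPKM, fragments per kilobase of transcript and per 1e6 mapped fragments, is a level that can be compared between genes. Both Baf53b siRNA libraries lay below the other 4, by little. On the log2(FPKM + 1) scale Actl6b in Baf53b siRNA differed from scrambled siRNA by -0.088 ± 0.12 (SE), with a limma adjusted p of 1 and a 95% interval of -0.38 to 0.21, and an exact two-sided permutation test of these 2 libraries against the other 4 gave p = 0.0667, the smallest that 15 splits allow. The Actl6b values thus do not check the siRNA labels, and the groups are named below as labelled.

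Depth, estimated from the deposited confidence intervals, came to between 6.43 and 10.7 M fragments (M, 1e6) per library. Mitochondrial genes held between 15.02% and 29.54% of the FPKM sum, lower in replicate 1 than in replicate 2 of every group. Two-sided tests with limma covered 14664 genes with a mean of at least 1 FPKM, all 10 precursors included, and called a gene at an adjusted p under 0.05. The groups stood apart most in markers of reactive astrocytes and microglia, whose summed level was 1327 and 1039 FPKM in Baf53b siRNA, 450.8 and 437 in scrambled siRNA, and 217.9 and 223.9 in control.

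All 10 precursors were detected in every library, over a wide span of levels. Mean levels over the 6 libraries were 258 FPKM for Cck, 220 for Sst, 84.2 for Penk, 65.6 for Npy and 25.8 for Vip, and then 7.56 for Tac1, 5.17 for Adcyap1, 2.06 for Pdyn, 1.85 for Cort and 1.28 for Crh. By mean level Cck ranked 222nd and Sst 270th among the 14664 genes, while Pdyn, Cort and Crh ranked 12695th, 12985th and 13968th. Sst, Npy, Cck and Vip, named above as markers of interneuron classes, thus made up 4 of the 5 highest, with Penk the exception. Cort, made by a subset of cortical interneurons, ranked among the lowest, and Cck is also made by many excitatory neurons.

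Not every neighbour in that order was separate. Sst and Penk, Npy and Vip, Vip and Tac1, and Adcyap1 and Pdyn had ranges over the 6 libraries that did not overlap. Ranges overlapped for Cck and Sst, which kept this order in 5 of 6 libraries, and for Pdyn and Cort, which kept it in 3 of 6. Penk and Npy, Tac1 and Adcyap1, and Cort and Crh also had overlapping ranges, although the higher gene led in each of the 6 libraries.

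**Figure D1:**
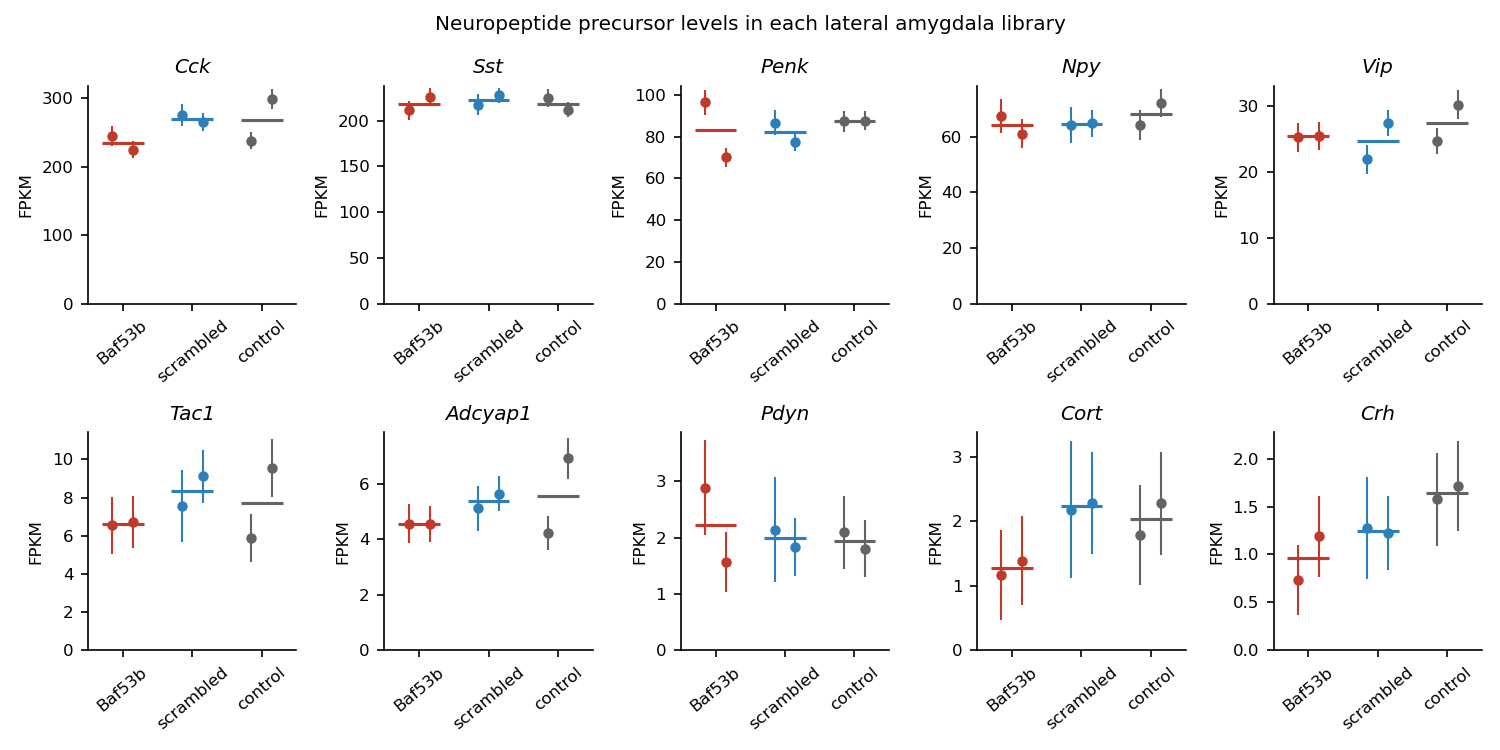
Level of each precursor in FPKM (vertical axis, from 0) in the 2 libraries of Baf53b siRNA (red), scrambled siRNA (blue) and control (grey). Points are libraries, vertical lines the deposited confidence interval of each library and horizontal bars the group means; Sst lies between 211.3 and 227.5 FPKM throughout, while the higher Cort point of Baf53b siRNA is at 1.39 FPKM and the lowest of the other 4 at 1.79 FPKM.

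None of the 10 precursors passed the test between the libraries labelled Baf53b siRNA and those labelled scrambled siRNA. The count was 0 of 10 at a limma adjusted p under 0.05, against 0.123% of all genes tested (18 genes, all higher in Baf53b siRNA). At an unadjusted p under 0.05 there was 1 of 10, Cort, against 3.03% of all genes, and a robust limma fit also called 0 of 10. The point values leaned lower. Of the 10 log2 differences 7 were negative, with a median of -0.11, against a median of 0.0027 and 49% negative over all genes. Both Baf53b siRNA libraries lay below both scrambled siRNA libraries for 5 of 10 (Cort, Cck, Crh, Tac1 and Adcyap1), against 9.00% of all genes, and above both for 0 of 10, against 13.1%. Neuron marker lists leaned the same way. Among GABA interneuron markers 5 of 14 tested genes lay below without overlap and 1 above, and among pan-neuronal markers 3 of 9 below and 0 above. Their medians were -0.10 and -0.068. For excitatory neuron markers it was 2 of 9 below and 0 above, with a median of -0.078. Markers of the central amygdala and striatum were nearly even, with a median of -0.017, 4 negative and 4 positive differences, and 3 of 8 below and 1 above. With so few libraries, such leanings cannot be told apart from the spread between replicates. Nor can fewer cells of a type and less RNA per cell be told apart in tissue of mixed cells.

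Against the control libraries the call was again 0 of 10, with a background of 1.23% (181 genes, all higher in Baf53b siRNA). Unadjusted p-values under 0.05 were found for 2 of 10, Cort and Crh, against 5.02% of all genes, and the lowest limma adjusted p was 0.93. Of the log2 differences 8 were negative, with a median of -0.13, against 39.3% negative and a median of 0.038 over all genes. The libraries did not overlap for 2 of 10, both lower (Cort and Crh), against 7.11% of all genes, and 0 of 10 were higher without overlap, against 16.7%. Scrambled siRNA against control gave 0 of 10 calls and 0% over all genes with limma. At an unadjusted p under 0.05 there were 0 precursors and 325 genes, or 2.22%. Crh and Penk were lower without overlap there, 2 of 10 against 5.57% of all genes, while none was higher, against 12.7%. The median was 0.0027, with 5 of 10 negative, against 0.041 and 36.4% negative over all genes. When the 2 Baf53b siRNA libraries were set against the other 4 together, 2 of 10 precursors, Cort and Crh, were below every one of them, against 3.07% of all genes, and 0 of 10 above, against 8.03%.

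**Figure D2:**
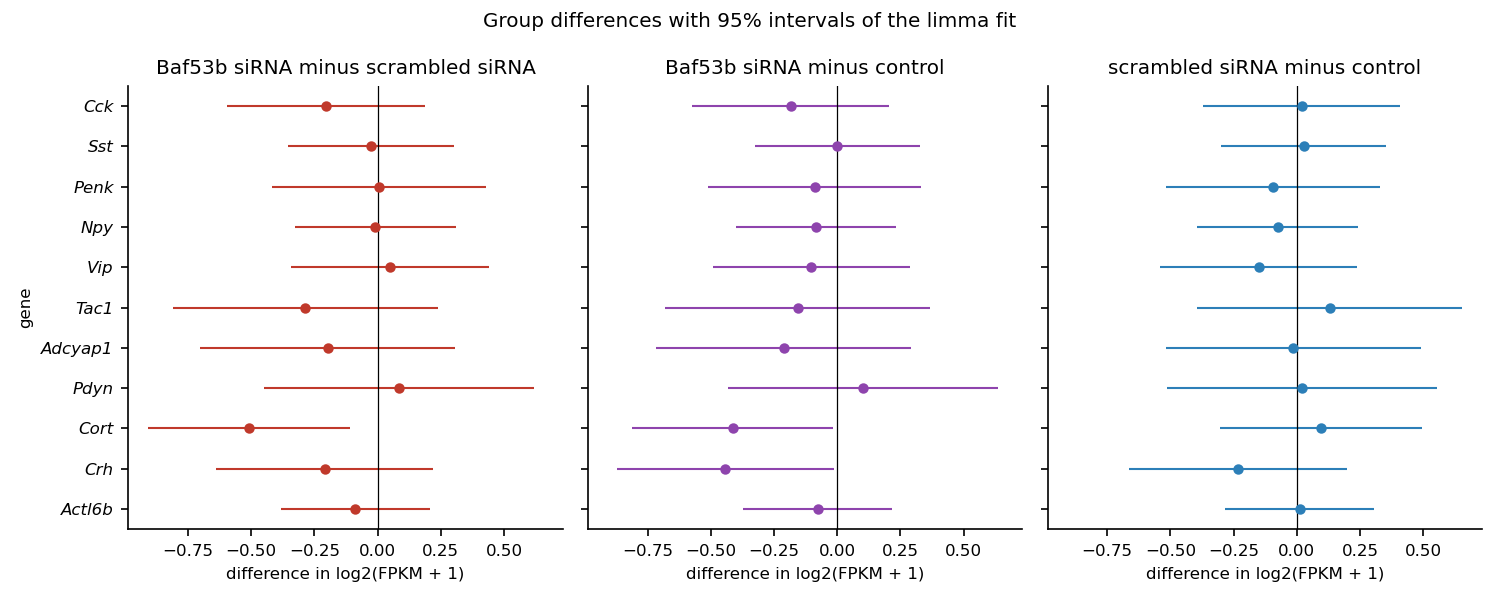
Difference in log2(FPKM + 1) between groups (horizontal axis) for the 10 precursors and Actl6b, with points for the limma estimates and lines for their 95% intervals, in 1 panel per comparison. The Cort interval lies below 0 in both Baf53b siRNA comparisons (-0.91 to -0.11 against scrambled siRNA), the Crh interval against control only, and every other interval spans 0.

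Cort encodes cortistatin, a peptide close to somatostatin that acts on the same receptors and is made by a subset of cortical interneurons. It was at 1.17 and 1.39 FPKM in Baf53b siRNA, 2.18 and 2.28 in scrambled siRNA, and 1.79 and 2.28 in control. Both Baf53b siRNA libraries were the lowest of the 6, and the scrambled siRNA and control ranges overlapped. Group means were 1.28 ± 0.156 FPKM in Baf53b siRNA and 2.23 ± 0.0707 FPKM in scrambled siRNA (SD, n = 2 each). The log2 difference was -0.51 ± 0.17 (SE; limma adjusted p = 1), and -0.41 ± 0.17 against control (limma adjusted p = 0.93). Because 1 is added before the logarithm, such values understate the change of a gene this low, and with a pseudocount of 0.1 they were -0.77 against scrambled siRNA and -0.63 against control. These levels rest on few reads, an estimated 11 and 16 fragments in Baf53b siRNA, 17 and 33.4 in scrambled siRNA and 21 and 32.7 in control, and the deposited intervals of all 6 libraries overlapped. At this depth single libraries could not be told apart. The gene lies on chromosome 4 at 149125034 to 149126763, minus strand.

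Its close relative Sst encodes somatostatin, the inhibitory peptide of dendrite-targeting interneurons (chr16:23889581-23890844, minus strand). Sst was at 211.3 and 225.5 FPKM in Baf53b siRNA, 217.2 and 227.5 in scrambled siRNA, and 224.5 and 212 in control. All groups overlapped, and the highest library exceeded the lowest by a factor of 1.08, the narrowest span of the 10 genes. Between Baf53b siRNA and scrambled siRNA the log2 value differed by -0.026, with a 95% interval of -0.35 to 0.30. Sst rested on between 1410 and 2870 estimated fragments per library. As a share of the Sst level, Cort stood at 0.551% and 0.614% in Baf53b siRNA, 1.01% and 1.00% in scrambled siRNA and 0.797% and 1.08% in control. With Sst nearly level, this ratio restates the Cort values and rests on the same fragments.

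Npy encodes neuropeptide Y, which in the amygdala dampens anxiety-like behaviour in rodents and is made by many somatostatin interneurons (chr6:49822710-49829507, plus strand). The Npy level was 67.3 and 61.1 FPKM in Baf53b siRNA, 64.2 and 64.7 in scrambled siRNA, and 64.2 and 72.0 in control. The groups overlapped in all comparisons. On the log2 scale Npy differed by -0.0085 from scrambled siRNA (95% interval -0.33 to 0.31) and by -0.084 from control.

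Cck encodes cholecystokinin, made in the forebrain by basket interneurons and by many excitatory neurons (chr9:121489824-121495694, minus strand). It had 244.8 and 224.7 FPKM in Baf53b siRNA, 275.8 and 264.9 in scrambled siRNA, and 238.1 and 298.7 in control. Baf53b siRNA lay below scrambled siRNA, while the 2 control libraries spanned nearly the whole range. The log2 difference was -0.20 ± 0.17 (SE; 95% interval -0.59 to 0.19; limma adjusted p = 1) against scrambled siRNA and -0.18 against control. The control replicates set the second value, which was -0.35 without control replicate 1 and -0.022 without control replicate 2.

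Vip encodes vasoactive intestinal peptide, the marker of interneurons that mainly inhibit other interneurons (chr10:5639218-5647617, plus strand). It was at 25.3 and 25.5 FPKM in Baf53b siRNA, 21.9 and 27.4 in scrambled siRNA, and 24.7 and 30.2 in control. The Baf53b siRNA values fell inside the scrambled siRNA range, and the deposited intervals of the replicates did not overlap in scrambled siRNA or in control. On the log2 scale Vip differed by 0.048 from scrambled siRNA and by -0.10 against control, with intervals that span 0.

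Penk encodes proenkephalin, the source of the enkephalins, which act on delta and mu opioid receptors (chr4:4133531-4138819, minus strand). Its level was 96.4 and 70.0 FPKM in Baf53b siRNA, 86.6 and 77.4 in scrambled siRNA, and 87.2 and 87.7 in control. The Baf53b siRNA libraries were the highest and the lowest of the 6, with deposited intervals apart, so the group mean of 83.2 ± 18.7 FPKM (SD, n = 2) describes neither. Their replicate difference was -0.46 on the log2 scale, replicate 2 minus replicate 1, and 10.4% of all genes differed by more within that group. Against scrambled siRNA the log2 difference was 0.0053 (95% interval -0.42 to 0.43) and became -0.22 without Baf53b siRNA replicate 1. The noncoding gene A830012C17Rik overlaps Penk on the opposite strand. The library kit marks strand, but whether the counting used it is not given in the sources used here, so reads of that gene may be included.

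Pdyn encodes prodynorphin, the source of the dynorphins, which act on the kappa opioid receptor (chr2:129686565-129699844, minus strand). Pdyn was at 2.89 and 1.57 FPKM in Baf53b siRNA, 2.14 and 1.84 in scrambled siRNA, and 2.09 and 1.80 in control. As with Penk, Baf53b siRNA replicate 1 was the highest library and replicate 2 the lowest. The replicate difference of -0.60 exceeded that of all but 5.04% of genes in the group, although the deposited intervals of all 6 libraries overlapped, on 20.9 to 50.7 estimated fragments. The log2 difference from scrambled siRNA was 0.084 ± 0.23 (SE; 95% interval -0.45 to 0.62), and it was -0.21 without Baf53b siRNA replicate 1.

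Crh encodes corticotropin-releasing hormone, the stress peptide of the hypothalamus that is also made in central amygdala neurons and some interneurons (chr3:19693401-19695396, minus strand). It had 0.728 and 1.19 FPKM in Baf53b siRNA, 1.27 and 1.23 in scrambled siRNA, and 1.58 and 1.71 in control. No 2 groups overlapped, with Baf53b siRNA the lowest and control the highest, but Baf53b siRNA replicate 2 and scrambled siRNA replicate 2 nearly touched. The log2 difference was -0.21 ± 0.18 (SE; limma adjusted p = 1) against scrambled siRNA and -0.44 ± 0.18 against control (limma adjusted p = 0.944). Against scrambled siRNA it was -0.040 without Baf53b siRNA replicate 1, -0.38 without Baf53b siRNA replicate 2 and -0.39 with a pseudocount of 0.1, and against control -0.27 without Baf53b siRNA replicate 1 and -0.75 with that pseudocount. It rested on between 16 and 52.8 estimated fragments per library.

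Tac1 encodes the precursor of substance P and neurokinin A (chr6:7554879-7565834, plus strand). Its values were 6.55 and 6.73 FPKM in Baf53b siRNA, 7.57 and 9.11 in scrambled siRNA, and 5.87 and 9.55 in control. Both Baf53b siRNA libraries lay below both scrambled siRNA libraries and inside the control range. For Tac1 the log2 difference was -0.29 ± 0.22 (SE; 95% interval -0.81 to 0.24; limma adjusted p = 1) against scrambled siRNA and -0.16 against control. Without scrambled siRNA replicate 2 the first was -0.17, and without control replicate 2 the second was 0.15.

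Adcyap1 encodes PACAP, a peptide that raises cyclic AMP and is known in rodents for its part in stress and fear circuits (chr17:93199422-93205485, plus strand). Adcyap1 was at 4.55 and 4.56 FPKM in Baf53b siRNA, 5.11 and 5.64 in scrambled siRNA, and 4.23 and 6.91 in control. The pattern resembled that of Tac1, with Baf53b siRNA below scrambled siRNA and the control replicates at both ends. For Adcyap1 it was -0.20 ± 0.21 on the log2 scale (SE; 95% interval -0.70 to 0.31) against scrambled siRNA. Within control, replicate 2 exceeded replicate 1 by 0.60 on the log2 scale for Adcyap1 and by 0.62 for Tac1, and 9.58% and 8.75% of all genes differed by more. For both genes the deposited intervals of the control replicates were apart.

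**Figure D3:**
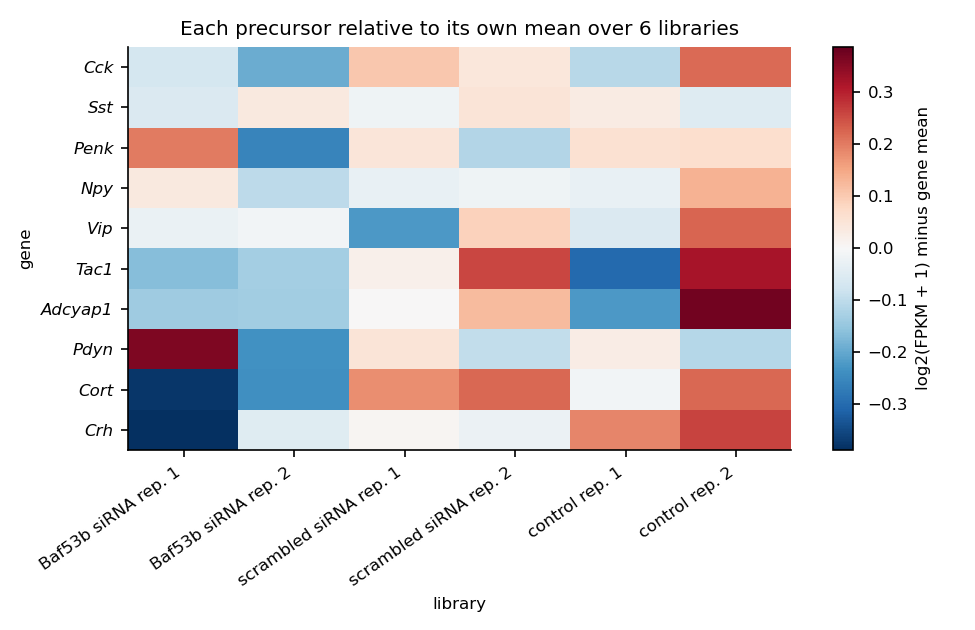
Each precursor in each library as log2(FPKM + 1) minus the mean of that gene over the 6 libraries (colour, red above and blue below), with libraries along the horizontal axis and genes down the vertical axis in order of level. Cort and Crh are blue in both Baf53b siRNA libraries, Penk and Pdyn are red in Baf53b siRNA replicate 1 and blue in replicate 2, and 8 of 10 genes are higher in control replicate 2 than in control replicate 1.

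The spread between replicates was thus as large as most group differences. In control 8 of 10 precursors were higher in replicate 2, while the median gene was lower there by 0.11. Over all 30 replicate pairs of a precursor and a group, 6 had deposited intervals that did not overlap. Crh, Tac1 and Cort had the widest ranges of the 10 on the log2(FPKM + 1) scale, 0.65, 0.62 and 0.60. Among all tested genes the profiles most like theirs over the 6 libraries, by the root mean square difference of centred log2 values, were Zfp105 (0.0296) and Gm26954 (0.0602) for Crh, Rpf2 (0.052) and Neurod6 (0.0615) for Tac1, and 1110046J04Rik (0.0596) and Gm10702 (0.0748) for Cort. With 6 libraries and 14664 genes to search, such likeness is a description only.

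Receptors for these peptides were mostly low. Of 20 receptor genes 14 were tested, and 0 were called in any of the 3 comparisons with limma, nor did any reach an unadjusted p under 0.05. The highest were Adcyap1r1, the receptor selective for PACAP, at a mean of 39.2 FPKM, and Cckbr, the main brain receptor for cholecystokinin, at 21.2 FPKM. Next came the neuropeptide Y receptor Npy1r at 9.64 FPKM and the somatostatin and cortistatin receptors Sstr1 at 8.33 FPKM and Sstr2 at 7.12 FPKM. The kappa receptor Oprk1, the substance P receptor Tacr1, the neurokinin B receptor Tacr3, the second VIP and PACAP receptor Vipr2, Sstr5 and Cckar had means under 1 FPKM and were not tested. Pdyn, the source of the ligands of Oprk1, was low too, whereas Cck was the highest precursor and its receptor Cckar the lowest receptor, between 0 and 0.0375 FPKM.

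The pair of CRH receptors gave the extremes of this list between Baf53b siRNA and scrambled siRNA. Crhr1, the main CRH receptor of the forebrain, was at 3.15 and 2.62 FPKM in Baf53b siRNA, 4.46 and 3.16 in scrambled siRNA, and 3.48 and 1.89 in control. Crhr2 was at 2.27 and 2.08 FPKM in Baf53b siRNA, 1.77 and 1.61 in scrambled siRNA, and 2.36 and 1.01 in control. Baf53b siRNA lay below scrambled siRNA for Crhr1 and above it for Crhr2, with both control ranges wide. The log2 differences were -0.30 ± 0.25 for Crhr1 and 0.24 ± 0.25 for Crhr2 (SE; limma adjusted p = 1 for each). Over the 14 receptors the median was -0.076 against scrambled siRNA and 0.075 against control. Within groups, 13 of 14 receptors were lower in replicate 2 than in replicate 1 of Baf53b siRNA, 14 of 14 in scrambled siRNA and 11 of 14 in control. The median of all tested genes was also lower in replicate 2, with log2 differences of -0.066, -0.13 and -0.11 in these groups, as were 11, 13 and 11 of 14 CREB pathway genes.

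Genes that cut and pack the precursors were high. Cpe, the carboxypeptidase that trims cut peptides, averaged 1208 FPKM, the convertase Pcsk2 112.7 FPKM, and the convertase Pcsk1 10.5 FPKM. Of 13 such genes 0 were called in any comparison, and 0 had an unadjusted limma p under 0.05. The ends of this list between Baf53b siRNA and scrambled siRNA were the granins Chgb and Scg2, proteins of dense core vesicles. Scg2 was at 35.6 and 35.2 FPKM in Baf53b siRNA, 42.0 and 45.7 in scrambled siRNA, and 37.8 and 54.9 in control. Both Baf53b siRNA libraries were below the other 4, and the log2 difference was -0.30 ± 0.19 (SE; 95% interval -0.74 to 0.15; limma adjusted p = 1) against scrambled siRNA. Chgb, at 200.8 and 142 FPKM in Baf53b siRNA and 163.3 and 157.7 FPKM in scrambled siRNA, differed by 0.072, and its Baf53b siRNA replicates stood to each other as those of Penk did.

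Of 6 genes for peptide clearance and binding 5 were tested and 0 called, with 0 at an unadjusted limma p under 0.05. Crhbp, which binds CRH outside the cell, was between 8.69 and 11.8 FPKM in the 6 libraries, several times the level of Crh in each. The largest values in the list belonged to endothelin-converting enzyme Ece1 at 0.60 ± 0.71 (SE) and to neprilysin, Mme, at -0.19. Ece1 split the libraries by replicate number in scrambled siRNA, at 81.1 and 23.9 FPKM, and in control, at 90.2 and 22.2 FPKM, and hardly in Baf53b siRNA, at 68.1 and 66.7 FPKM.

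Because CREB acts on the element shown above, genes of its pathway and genes induced by activity were read beside the precursors. Of 14 CREB pathway genes 0 were called in any comparison and 0 had an unadjusted limma p under 0.05, with a median of -0.045 against scrambled siRNA. Creb1 itself had the highest value at 0.18 and the cyclase Adcy1 the lowest at -0.17. Of 10 immediate early genes 0 were called and 1, Fos, had an unadjusted limma p under 0.05, both against scrambled siRNA and against control. Over all genes such p-values were found for 3.03% and 5.02%. The median was 0.013 against scrambled siRNA, where 1 of 10 was higher without overlap and 0 lower, against 13.1% and 9.00% of all genes. Against control it was 0.13, with 4 of 10 higher without overlap and 1 lower, against 16.7% and 7.11% of all genes. Fos, the transcription factor subunit used to mark recently active neurons, averaged 4.81 ± 0.57 FPKM in Baf53b siRNA, 3.21 ± 0.535 FPKM in scrambled siRNA and 3.07 ± 0.498 FPKM in control (SD, n = 2 each). Its log2 difference was 0.47 against scrambled siRNA (limma adjusted p = 1) and 0.52 against control (limma adjusted p = 0.653), and that of Egr1 was -0.20 against scrambled siRNA. Sst, with the full element, was level between the groups, and the 5 other genes with the shorter form ranged from -0.51 for Cort to 0.048 for Vip.

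Markers of cells that could carry these peptides did not pass the test against scrambled siRNA either. The summed level of 15 GABA interneuron markers was 256.6 and 262.1 FPKM in Baf53b siRNA, 276 and 279.1 in scrambled siRNA, and 280.2 and 276.8 in control. Both Baf53b siRNA sums were the lowest of the 6, and 0 of 14 tested markers were called. The values at the ends of this list were 0.29 for Dlx5, a transcription factor of the GABA lineage, and -0.33 for the receptor kinase Kit. The summed precursors were 661 and 622.1 FPKM in Baf53b siRNA, 683.9 and 682 in scrambled siRNA, and 654.3 and 722.9 in control. The lowest and the highest sum were in the libraries with the lowest and the highest Cck. Gad1, the GABA-making enzyme, was at 92.6 and 92.8 FPKM in Baf53b siRNA, 94.9 and 100.4 in scrambled siRNA, and 101.1 and 88.5 in control. Excitatory neuron markers summed to 2573 and 2097 FPKM in Baf53b siRNA, 2675 and 2242 in scrambled siRNA, and 2547 and 2215 in control, with 0 of 9 called and ends of 0.094 for Neurod2 and -0.33 for Neurod6. Pan-neuronal markers summed to 2438 and 2170 FPKM in Baf53b siRNA, 2457 and 2407 in scrambled siRNA, and 2382 and 2400 in control, with 0 of 9 called. None of these interneuron, excitatory or pan-neuronal genes had an unadjusted limma p under 0.05 in any comparison.

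**Figure D4:**
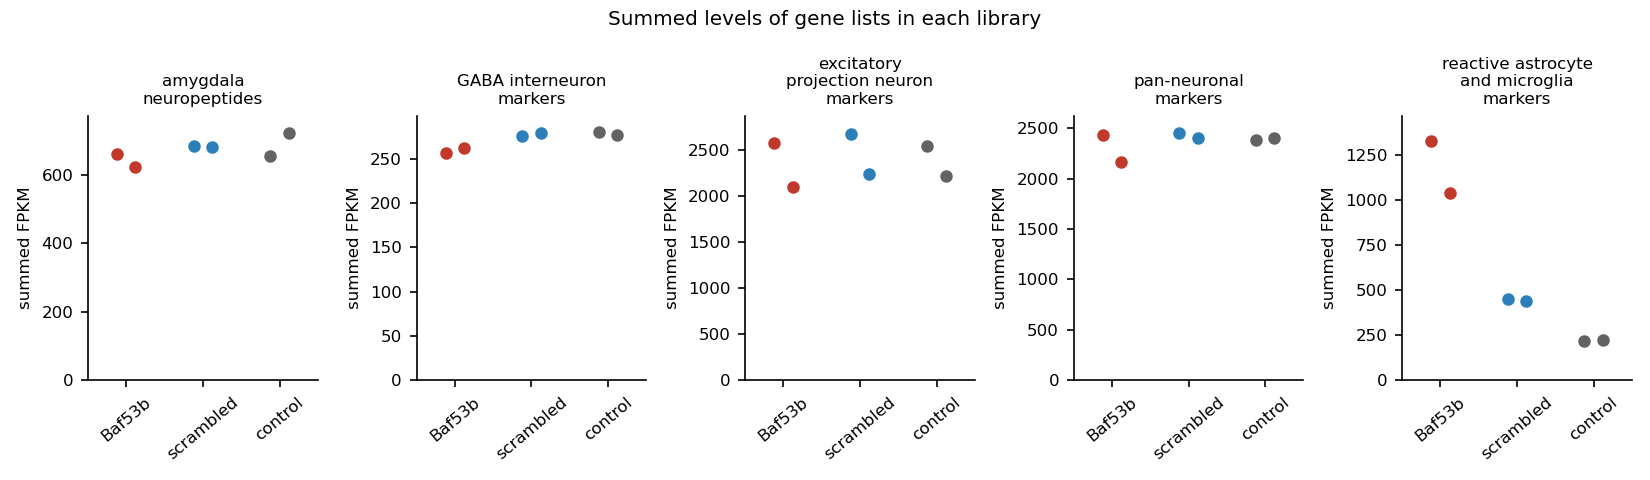
Summed FPKM (vertical axis, from 0) of 5 gene lists in each library of Baf53b siRNA (red), scrambled siRNA (blue) and control (grey); points are libraries. The reactive glia sum is 1327 and 1039 FPKM in Baf53b siRNA against 217.9 and 223.9 FPKM in control, while the precursor sum lies between 622.1 and 722.9 FPKM in all 6 libraries.

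Neighbouring regions express several of these peptides at high levels, so their markers were read in the same libraries. Of the hypothalamic peptides, Avp was at most 0.167 FPKM, Oxt at most 0.239 FPKM, Hcrt at most 0.163 FPKM, Agrp at most 0.490 FPKM and Pmch at most 0.671 FPKM. Pomc, the precursor of melanocortins and beta-endorphin, was between 0.624 and 1.59 FPKM, a level like that of Crh. Of the thalamic and hypothalamic list 4 genes were tested and 0 called. Tcf7l2, a transcription factor of the thalamus, was at 0.53 and Calb2 at -0.18 against scrambled siRNA. Tcf7l2 was the 1 gene of the list with an unadjusted limma p under 0.05, which 3.03% of all genes had against scrambled siRNA. This list summed to between 25.5 and 30.3 FPKM per library. Its highest member was Calb2, at a mean of 17.1 FPKM, which is also on the GABA interneuron list. Hippocampal markers summed to between 112.1 and 135.8 FPKM, with 0 of 5 tested genes called, 0 at an unadjusted limma p under 0.05, and ends of 0.24 for Wfs1 and -0.52 for Spink8. Their highest members were Wfs1 and Calb1, at means of 56.9 and 40.7 FPKM, and Calb1 is also on the GABA interneuron list. Prox1, Fibcd1 and Dsp were low, at 1.87, 0.65 and 0.049 FPKM, so neither sum measures neighbouring tissue alone.

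Markers of the central amygdala and striatum, where Penk, Pdyn, Tac1 and Crh neurons are dense, summed to between 96.1 and 105.2 FPKM. The dopamine receptor Drd1 was between 4.84 and 6.86 FPKM, whereas Drd2 was at most 0.414 FPKM and Adora2a at most 1.00 FPKM. Of the 8 tested, 0 were called against scrambled siRNA and 1 against control, where 0.123% and 1.23% of all genes were called. That gene was Prkcd, a protein kinase C that marks a class of central lateral amygdala neuron and is also made in thalamus and some glia. It was at 6.28 and 8.93 FPKM in Baf53b siRNA, 4.51 and 4.37 in scrambled siRNA, and 3.15 and 2.46 in control. Prkcd rose by 1.17 ± 0.20 (SE; limma adjusted p = 0.0477) against control and passed in only 2 of 15 other settings of the analysis. It was also higher in Baf53b siRNA than in scrambled siRNA by 0.65, and in scrambled siRNA than in control by 0.52. Unadjusted limma p-values were 0.0135 and 0.0328, and neither difference was called. Such p-values under 0.05 were found for 3.03% and 2.22% of all genes. Rxrg gave the lowest value of the list between Baf53b siRNA and scrambled siRNA, -0.24. Group means of Pdyn followed the Prkcd order with overlapping libraries, and those of Crh ran in the reverse order. Penk and Tac1 followed neither. As Prkcd is also made in other cells, its order does not measure the share of neighbouring tissue. Whether the share of neighbouring tissue plays a part in any precursor value was not tested.

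Beside the precursors, the markers of reactive astrocytes and microglia changed. Against scrambled siRNA 6 of 15 were called higher in Baf53b siRNA and 0 lower, against 0.123% of all genes called. Against control 14 of 15 were called higher, against 1.23% of all genes. All 15 markers had positive differences in both, with medians of 0.97 and 2.05. Leading them were the antigen presentation genes Cd74, H2-Aa and H2-Ab1, which were higher against scrambled siRNA by 3.96 ± 0.36, 3.47 ± 0.39 and 3.25 ± 0.34 on the log2 scale (SE; limma adjusted p = 0.0304, 0.0401 and 0.0304). These calls were lost in 6, 9 and 9 of 16 other settings, among them the fits without either scrambled siRNA library, with differences between 2.75 and 4.48 throughout. Gfap and C3 had smaller differences against scrambled siRNA but lower adjusted p-values. These were 1.89 ± 0.13 for Gfap and 2.81 ± 0.20 for C3 (SE, limma adjusted p = 0.0111 and 0.0117). For this pair other settings were not computed. Scrambled siRNA against control had a median of 1.07 for this list of reactive markers and 0 of 15 calls. There 11 of 15 had an unadjusted limma p under 0.05, against 2.22% of all genes. FPKM is a share of each library, and this list makes up more of it in Baf53b siRNA. The list held 1327 and 1039 FPKM of sums of 6.341e+05 in each Baf53b siRNA library. In scrambled siRNA it held 450.8 and 437 FPKM of sums of 6.098e+05 and 6.444e+05. The part of this list in the lower Cort, Cck, Crh, Tac1 and Adcyap1 values was not tested.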

How the data were processed

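Per the labels' protocols, polyadenylated RNA of lateral amygdala was made into stranded libraries and sequenced as read pairs. TopHat2 2.1.1, Cufflinks 2.2.1 and bcl2fastq 2.19.1.403 are named with build mm10 in the submitters' processing notes; annotation release and settings were not given in the sources used here. FPKM per gene and library, with the bounds of a confidence interval, are what the authors deposited, per the file headers. Rows of 48 repeated gene IDs were summed, 92 spike-in rows and 4 genes with failed estimates were set aside, and gene types came from GENCODE M21 (50160 of 50383 IDs matched). Fragments per gene were estimated by taking the half-width of a deposited interval as 2 standard errors of a count, which covers counting error only.

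Group means of log2(FPKM + 1) over the 6 libraries were fitted by limma 3.58.1 under R 4.3.3 (trended eBayes, 3 residual degrees of freedom, prior 3.99), after removing genes with a mean under 1 FPKM and 353 small RNA genes. The 3 comparisons were adjusted by Benjamini-Hochberg over 14664 genes. With 2 libraries a side, a permutation test of 1 comparison cannot go below 0.333. Named beside the 10 precursors and their receptors were, per gene list, genes that passed (at most the 3 largest) and those with the highest and lowest difference between Baf53b siRNA and scrambled siRNA, and for the 3 widest-ranging precursors the 2 genes of most similar profile. Other genes, such as Gad1, Cpe, Drd1, Gfap, C3 and the hypothalamic peptides, were named after their values were seen. The precursors and lists were chosen with earlier results of these data known. The fit was tested on simulated data, and 16 alternatives were tried.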

Additional observations from a re-analysis of the deposited data

Results flagged for a closer look

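The deposited tables list 92 synthetic spike-in sequences that the labels do not mention and that no comparison used. Their summed level was 4825 FPKM in Baf53b siRNA replicate 1, 811.4 FPKM in Baf53b siRNA replicate 2, 207.2 FPKM in scrambled siRNA replicate 1 and 656.2 FPKM in scrambled siRNA replicate 2. All 4 were above both control libraries, at 117 and 125.2 FPKM, which is why they are listed here. At most this was 0.755% of a library's FPKM sum, in the library where Penk and Pdyn were highest. Groups of 2 libraries were too small for a check of single outlying libraries.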

How the results depend on the processing

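No precursor was called in any of the 16 alternatives of the 3 comparisons, where the lowest limma adjusted p of a precursor was 0.423. Over the precursors and Actl6b, 474 of 519 recomputed differences kept their sign and 45 turned; none of these crossed the threshold. Cort, Cck, Crh, Tac1 and Adcyap1 stayed negative between Baf53b siRNA and scrambled siRNA in every setting where they were tested, although Crh there lay between -0.385 and -0.040 and Tac1 between -0.41 and -0.17. Cort, Crh and Pdyn were not tested at a mean of at least 5 FPKM.

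Differences that turned were small or rested on 1 library, and the cause was not tested. With a common sum outside the mitochondrial chromosome, Penk was -0.014 between Baf53b siRNA and scrambled siRNA, Sst was -0.080 between Baf53b siRNA and control, and between scrambled siRNA and control Sst was -0.035, Cck -0.043, Pdyn -0.022 and Actl6b -0.050. Median ratios turned Sst to -0.052 between Baf53b siRNA and control, and between scrambled siRNA and control Sst to -0.025, Cck to -0.032, Pdyn to -0.015 and Actl6b to -0.039. Quantile normalization turned Npy to 0.021 between Baf53b siRNA and scrambled siRNA, Sst to -0.042 and Pdyn to -0.034 between Baf53b siRNA and control, and between scrambled siRNA and control Sst to -0.026, Cck to -0.047, Pdyn to -0.046 and Actl6b to -0.037.

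Leaving out each library in turn gave ranges that cross 0 for some genes. Between Baf53b siRNA and scrambled siRNA these were Sst (-0.072 to 0.020), Npy (-0.077 to 0.061), Vip (-0.11 to 0.20), Penk (-0.22 to 0.23) and Pdyn (-0.21 to 0.38), with both ends for Penk and Pdyn set by the Baf53b siRNA replicates. Between Baf53b siRNA and control they were Sst (-0.046 to 0.047), Vip (-0.24 to 0.038), Penk (-0.32 to 0.14), Pdyn (-0.20 to 0.40), Tac1 (-0.47 to 0.15) and Adcyap1 (-0.51 to 0.087); control replicate 1 or 2 set the ends for Vip, Tac1 and Adcyap1. Between scrambled siRNA and control they were Sst (-0.014 to 0.068), Cort (-0.022 to 0.21), Npy (-0.16 to 0.0061), Cck (-0.14 to 0.18), Vip (-0.31 to 0.0044), Pdyn (-0.054 to 0.092), Tac1 (-0.18 to 0.44), Adcyap1 (-0.31 to 0.28) and Actl6b (-0.0092 to 0.032).

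Counts over all genes moved more. Against scrambled siRNA 18 genes became 1 with a pseudocount of 0.1, 8 at a mean of at least 5 FPKM, 5 with small RNA kept and 30 with robust eBayes, and between 4 (without control replicate 1) and 24 (without Baf53b siRNA replicate 2) without 1 library. Without a filter 20 were called, 6 higher and 14 lower. Against control 181 became 4 without a filter and 71 at 5 FPKM, and between 34 (without Baf53b siRNA replicate 1) and 139 (without scrambled siRNA replicate 2) without 1 library. Scrambled siRNA against control gave 13 without a filter, 1 with only those groups in the fit, and between 0 and 7 without 1 library (7 without control replicate 1). Where this left 1 library in a group, it was taken to vary like the others. The median of all genes moved past 0.1 only without control replicate 1 (0.101 for Baf53b siRNA and 0.1 for scrambled siRNA against control) and without scrambled siRNA replicate 2 (0.113).

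Replicate numbers are shared by the groups, but no label says what they mark. Deviations of same-numbered libraries correlated over genes at 0.359, 0.183 and 0.39, and with 2 numbers this does not establish pairing. With replicate number as a block 13, 188 and 0 genes were called in the 3 comparisons, and 0 precursors in each.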

Other observations

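Among 20 other neuropeptide precursors 7 passed the level filter and 0 were called in any comparison with limma. Nmb alone had an unadjusted limma p under 0.05, against scrambled siRNA and against control, as did 3.03% and 5.02% of all genes. Grp, gastrin-releasing peptide, a peptide of excitatory lateral amygdala neurons, was by far the highest of these precursors, at 72.2 and 59.3 FPKM in Baf53b siRNA, 77.5 and 65.0 in scrambled siRNA, and 75.8 and 78.4 in control. Nmb, neuromedin B, was at 2.85 and 2.74 FPKM in Baf53b siRNA, 1.82 and 1.46 in scrambled siRNA, and 2.04 and 1.39 in control. Both Baf53b siRNA libraries were above the other 4 for Nmb, and the group differed from scrambled siRNA by 0.53 ± 0.18 (SE) on the log2 scale, at a limma adjusted p of 1. Cartpt, the precursor of the CART peptides, had the lowest value of that list, -0.25, and its libraries overlapped.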
